A study of Mus musculus with 2 samples.

Results

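The prostaglandin genes described here are 9 genes that make, sense or inactivate prostaglandins, chosen by name: the cyclooxygenases Ptgs1 and Ptgs2, the prostaglandin E synthases Ptges, Ptges2 and Ptges3, the prostacyclin synthase Ptgis, the receptors Ptger2 and Ptger4, and the dehydrogenase Hpgd. All 9 were found among the 55487 genes of the deposited table, each with 1 identifier. Their mRNA was measured by RNA sequencing in apoptotic osteoblasts, bone-forming cells killed by ultraviolet irradiation, with 1 library from young mice and 1 from old mice. Mesenchymal cells grown out of bone pieces were passaged 3 times, given osteogenic medium for 3 days and exposed to ultraviolet light for 0.5 h in both groups, and more than 90% of the cells then took up Trypan Blue. The young library carries the treatment label day 0 and the old library day 5, while the treatment protocol names none, so day and age cannot be told apart. No source used here gives the strain, sex, age in months or number of animals behind a library.

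Prostaglandins are short-lived lipid signals. Phospholipase A2 frees arachidonic acid from membranes, a cyclooxygenase turns it into the unstable intermediate prostaglandin H2, and terminal synthases convert this into prostaglandin E2, prostacyclin and related products. In bone, prostaglandin E2 acts through receptors including EP2 and EP4, which raise cyclic AMP, and it is known for effects on both bone formation and resorption. The dehydrogenase encoded by Hpgd inactivates it after uptake into cells.

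The libraries held 16333396 (young) and 18114336 (old) reads assigned to genes, as worked out from the steps in the values. Levels are in FPKM, sequenced fragments per kilobase of gene, scaled to the number of reads in the library. Differences between the libraries are given as log2(FPKM + 1) in the old minus that in the young, over 12561 genes whose mean level reached 1 FPKM. A difference of 2-fold on this scale made a gene higher or lower. The plain FPKM ratio (old over young) is followed in brackets by its 95% exact Clopper-Pearson interval for counting error alone. With 1 library per age there is no replicate check and no test, and every difference is one between these libraries. In bulk RNA, fewer cells of a type and less RNA per cell cannot be told apart.

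Both cyclooxygenases and the inducible prostaglandin E synthase Ptges had more mRNA in the old library, while Ptges2 and Ptges3 were close to even and Ptgis, Ptger2, Ptger4 and Hpgd were at or near 0 in both. Of the 9 genes, 5 reached a mean of 1 FPKM. Among these 5, Ptgs1 alone was counted as higher at 2-fold and none as lower, against 1.97% of all genes higher and 0.868% lower. Their log2 ratios ran from −0.17 to 1.27 with a median of 0.73, beside a median of −0.07 over all 12561 genes. The counting interval lay wholly above 1 for Ptgs1, Ptgs2 and Ptges and below 1 for Ptges3, as it did for 20.6% and 33.5% of all genes. This median covers the genes above the minimum level and not the 4 that were scarce.

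**Figure D1:**
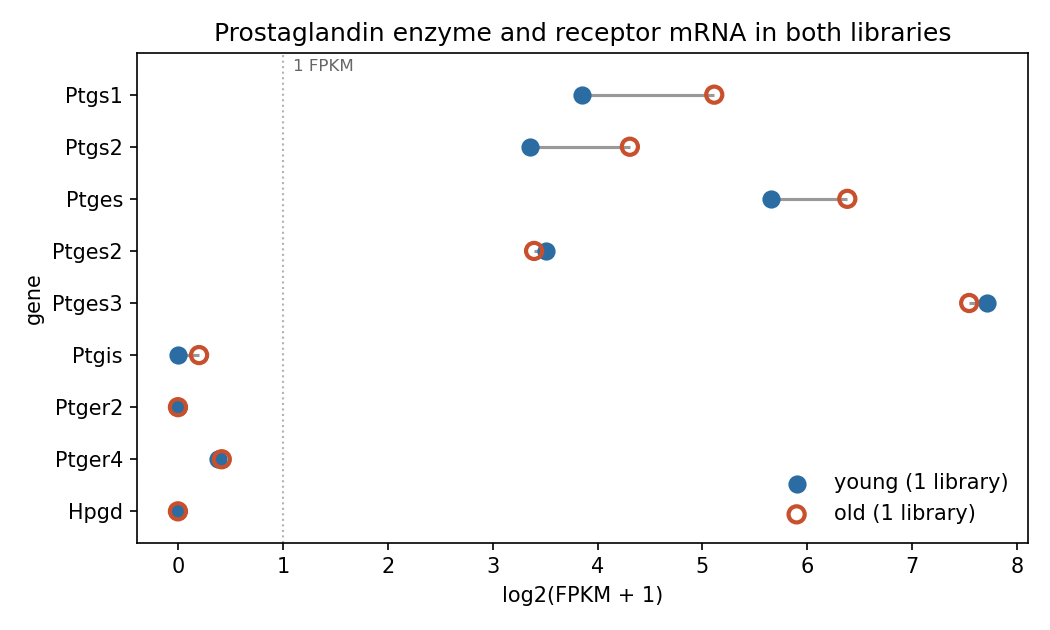
Level of each of the 9 genes as log2(FPKM + 1) in the young library (filled) and the old library (open), 1 library per age, with a dotted line at 1 FPKM. Ptgs1, Ptgs2 and Ptges lie farther right in the old library, Ptges2 and Ptges3 slightly farther left, and the other 4 genes stay below 1 FPKM in both.

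Ptgs1 encodes cyclooxygenase-1, the form known for steady production of prostaglandins in many tissues. It lies on the forward strand of chromosome 2, from 36230426 to 36252272 in GRCm38 (ENSMUSG00000047250), with 5 annotated transcripts. Its level was 13.4 FPKM (young) and 33.6 FPKM (old). These values rested on 330 and 918 reads and gave an FPKM ratio of 2.51 [2.21 to 2.85], so the whole interval lay above 2-fold, as it did for 1.45% of the genes with reads worked out. The log2 ratio of 1.27 ranked 150 of 12561 from the top. Among protein-coding genes, the 3 whose pair of values lay closest to that of Ptgs1, by Euclidean distance on the log2(FPKM + 1) scale over both libraries, were Rtl3 (14.1 and 33.7 FPKM), Masp1 (13.8 and 32.2 FPKM) and Gbp3 (13.4 and 36.0 FPKM).

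Ptgs2 encodes cyclooxygenase-2, the inducible form known for its rapid response to cytokines, growth factors and mechanical load. It lies on the forward strand of chromosome 1, from 150100031 to 150108227 (ENSMUSG00000032487), with 2 annotated transcripts. The young library had 9.21 FPKM on 362 reads and the old library 18.8 FPKM on 820 reads. The plain ratio was 2.04 [1.80 to 2.32], and the log2 ratio of 0.96, made smaller by the added 1, stayed just under 2-fold. It passed 2-fold at a pseudocount of 0.1 (log2 ratio 1.02) and when the median of all genes was set to 0 (1.02), and was 0.74 at a pseudocount of 5.

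Per length, Ptgs1 mRNA was above Ptgs2 mRNA in both libraries, at 1.45 times its level in the young (counting interval 1.25 to 1.69) and 1.79 times in the old (1.62 to 1.96). With the longest annotated transcript in place of the mean transcript length, these ratios were 1.42 and 1.74. The inducible form was therefore not the more abundant one in either library under either length. This order rests on the assumed lengths, since the young library held 330 reads of Ptgs1 and 362 of Ptgs2. The summed level of both was 22.6 FPKM (young) and 52.4 FPKM (old), of which Ptgs1 gave 59.3% and 64.1%.

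**Figure D2:**
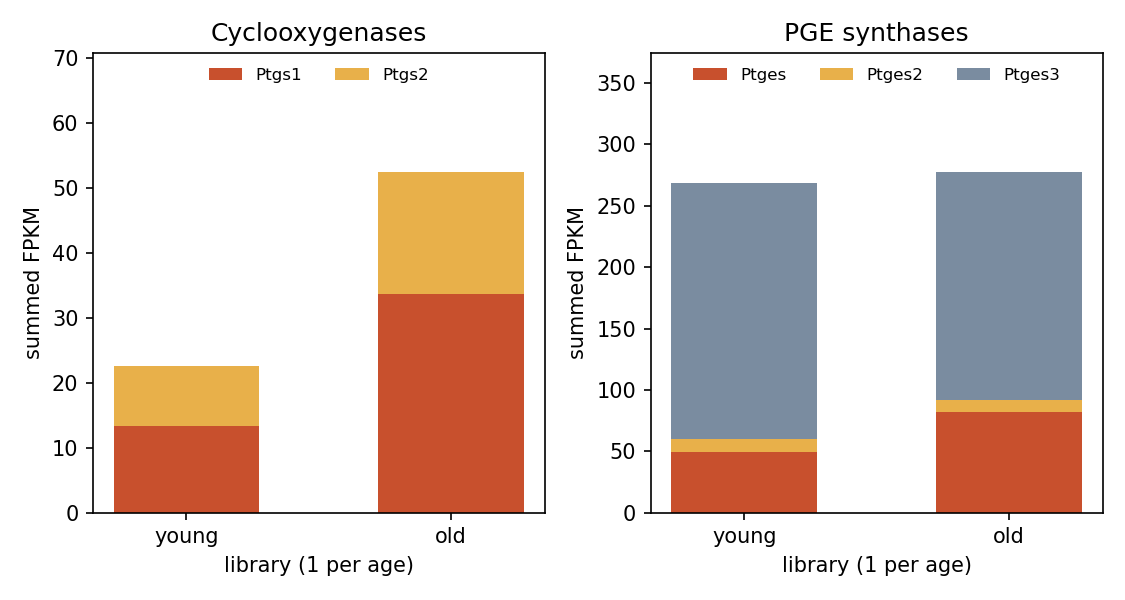
Stacked bars of FPKM for the cyclooxygenases (left) and the prostaglandin E synthases (right) in the young and the old library, 1 library per age and no error bars. The cyclooxygenase bar goes from 22.6 to 52.4 FPKM and the synthase bars, at 269 and 277 FPKM, differ little in height while the Ptges segment is larger in the old library.

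Prostaglandin E synthases convert prostaglandin H2 into prostaglandin E2. Ptges, which encodes the membrane enzyme that is often induced together with cyclooxygenase-2, lies on the reverse strand of chromosome 2, from 30889471 to 30929863 (ENSMUSG00000050737), with 4 annotated transcripts. It was at 49.4 FPKM (young) and 82.4 FPKM (old), on 1078 and 1992 reads. The ratio of 1.67 [1.55 to 1.80] lay wholly above 1.5-fold, which held for 3.39% of genes, and the log2 ratio of 0.73 ranked 506 of 12561.

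Ptges2 encodes a second membrane-associated enzyme, which is mostly expressed at a steady level. It lies on the forward strand of chromosome 2, from 32395896 to 32405772. It was at 10.4 FPKM (young) and 9.52 FPKM (old) (354 and 360 reads). The ratio of 0.917 [0.790 to 1.06] included 1, so a difference was not detectable at this depth.

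Ptges3 encodes the cytosolic synthase, a protein also known as p23, a cochaperone of Hsp90. It lies on the forward strand of chromosome 10, from 128058954 to 128077272, and was the most abundant of the 9 genes, at 209 FPKM (young) and 186 FPKM (old) (4525 and 4457 reads). The ratio was 0.888 [0.852 to 0.926], an interval below 1 of the kind that a large share of genes had. Its value is uncertain because 23.2% of the 50-base words of its transcripts also occur in the processed pseudogene Ptges3-ps, which was at 88.0 and 110.2 FPKM. Ptges3 and its pseudogene thus differed in opposite directions, the pseudogene having a ratio of 1.25 [1.13 to 1.38].

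The summed level of these 3 synthases was close in both libraries, at 269 FPKM (young) and 277 FPKM (old), while their make-up differed. Ptges gave 18.4% of the sum at the young age and 29.7% at the old. These shares depend on gene length, and with the longest annotated transcript in place of the mean transcript length they were 11.2% and 19.2%. The shares and sums are also uncertain because Ptges3, which gave most of each sum, shares sequence with its pseudogene. Ptges mRNA was 4.76 times that of Ptges2 (young) and 8.65 times (old).

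**Figure D3:**
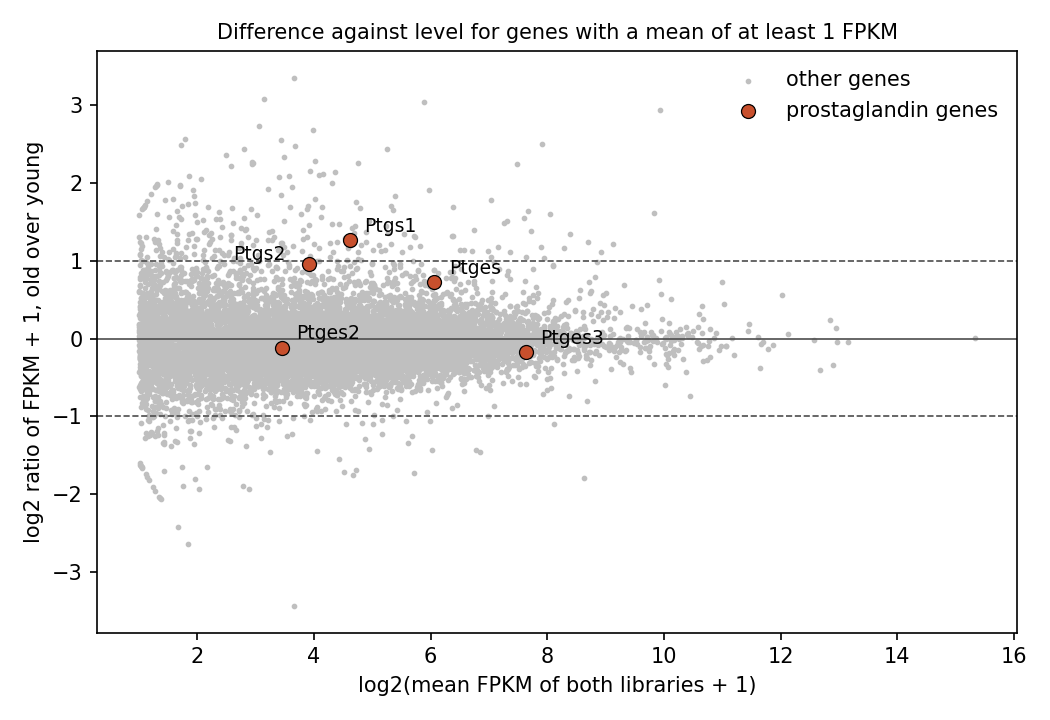
Old against young difference in log2(FPKM + 1), plotted over the log2 mean level for 12561 genes with a mean level from 1 FPKM upward (grey) and the 5 prostaglandin genes among them (red), with dashed lines at 2-fold. Ptgs1 lies above the upper line at 1.27, Ptgs2 just under it at 0.96 and Ptges at 0.73, while Ptges2 and Ptges3 lie within the bulk of genes.

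The promoters of Ptgs1, Ptgs2 and Ptges are shown because these 3 genes had more mRNA in the old library. Each run is RefSeq sequence of GRCm38.p6 in the direction of the gene, from 250 bases before the annotated start to 50 after it. Windows were found for 8 of the 9 genes. They cover chr2:36230176-36230475 on the forward strand for Ptgs1, chr1:150099781-150100080 on the forward strand for Ptgs2 and chr2:30903248-30903547 on the reverse strand for Ptges, whose RefSeq start lies inside the gene span given above. Capitals mark matches, on either strand, to the letters TTGCGCAA (a C/EBP site), CACGTG (an E-box), CGTCA (the core of a cyclic AMP response element), TATAAA (the TATA box), GTGGGCG (an Egr site) and GGGCGG (a GC box).
Ptgs1: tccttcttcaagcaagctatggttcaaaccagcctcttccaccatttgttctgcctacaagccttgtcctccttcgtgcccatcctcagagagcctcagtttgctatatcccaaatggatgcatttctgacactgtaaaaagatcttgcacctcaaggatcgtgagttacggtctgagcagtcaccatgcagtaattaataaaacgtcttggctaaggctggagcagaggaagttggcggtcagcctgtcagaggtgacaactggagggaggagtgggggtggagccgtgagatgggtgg
Ptgs2: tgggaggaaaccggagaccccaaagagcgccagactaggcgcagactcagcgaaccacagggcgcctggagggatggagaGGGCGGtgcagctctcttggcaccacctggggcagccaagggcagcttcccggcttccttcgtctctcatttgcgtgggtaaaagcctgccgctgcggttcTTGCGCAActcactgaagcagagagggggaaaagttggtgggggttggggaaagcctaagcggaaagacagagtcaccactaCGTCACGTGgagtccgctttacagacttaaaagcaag
Ptges: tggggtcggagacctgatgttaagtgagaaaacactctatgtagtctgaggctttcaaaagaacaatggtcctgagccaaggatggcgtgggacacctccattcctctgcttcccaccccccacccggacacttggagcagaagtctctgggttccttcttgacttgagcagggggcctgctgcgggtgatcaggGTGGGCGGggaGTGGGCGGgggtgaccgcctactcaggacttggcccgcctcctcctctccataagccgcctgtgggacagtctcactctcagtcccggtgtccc

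No motif other than the GC box was found in more than 1 of the 3 windows. The Ptgs1 window held no match to any of the 6 motifs. That of Ptgs2 held TTGCGCAA at 69 bases before the start, letters found in 0.183% of 32851 promoter windows, and CGTCA, overlapping CACGTG, from 13 bases after it. CGTCA was found in 20.8% of windows and CACGTG in 7.15%. Ptgs2 also had 1 GC box, letters found in 35.7% of windows. The Ptges window held GTGGGCG 2 times, at 55 and 44 bases before the start. GTGGGCG was found in 7.97% of windows, and both matches overlapped a GC box. TATAAA, found in 13.6% of windows, was absent from all 3. The motifs were chosen with the sequences in view, and a match is a description of letters and not of binding.

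Beyond prostaglandin E2, Ptgis makes prostacyclin. It lies on the reverse strand of chromosome 2, from 167191805 to 167240604. The young library had 0 reads (an upper limit of 0.125 FPKM), and the old library had 4 reads (0.150 FPKM). The interval of the ratio ran upward from 0.595 without an upper limit, so no difference was detectable.

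The receptor genes of the set were scarce. Ptger4, which encodes EP4, lies on the reverse strand of chromosome 15, from 5206661 to 5244187, and was at 0.302 FPKM (young) and 0.336 FPKM (old) (17 and 21 reads), a ratio of 1.11 [0.560 to 2.25]. Of its exon bases, 16.5% are overlapped by genes of the opposite strand, whose reads cannot be told apart where strand is not known to have been used. Ptger2, which encodes EP2 and lies on chromosome 14 from 44988195 to 45003820, had no read in either library, an upper limit of 0.0580 FPKM for the young and 0.0523 FPKM for the old. Neither receptor that raises cyclic AMP in response to prostaglandin E2 therefore reached 1 FPKM at either age.

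Hpgd encodes the dehydrogenase that inactivates prostaglandin E2. It lies on the forward strand of chromosome 8, from 56294585 to 56321043, and likewise had no read, with upper limits of 0.109 FPKM (young) and 0.0984 FPKM (old). Slco2a1, the transporter that brings prostaglandins to this enzyme, was also scarce with 8 reads in each library. Neither gene had as many as 10 reads in either library.

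Of the other prostanoid receptors, Ptgfr, the receptor for prostaglandin F2 alpha, was the most abundant, at 42.1 FPKM (young) and 48.9 FPKM (old) (1934 and 2493 reads), a ratio of 1.16 [1.09 to 1.23]. It gave 94.7% and 95.2% of the summed FPKM of 9 prostanoid receptor genes. Ptger1, which encodes EP1, was at 1.77 and 1.87 FPKM, and other genes cover 71.0% of its exon bases. Ptger3 had 3 and 2 reads, the prostacyclin receptor Ptgir 3 and 4, and the thromboxane receptor Tbxa2r 5 and 6, while Ptgdr and Ptgdr2, receptors for prostaglandin D2, had 0 in both. Genes of the opposite strand overlap 22.1% and 39.0% of the exon bases of these last 2. Of the 9 genes listed as other receptors, including the nuclear receptors Pparg and Ppard, 3 were above the minimum level and none differed 2-fold. Ppard, at 38.6 and 37.5 FPKM, was close to even.

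**Figure D4:**
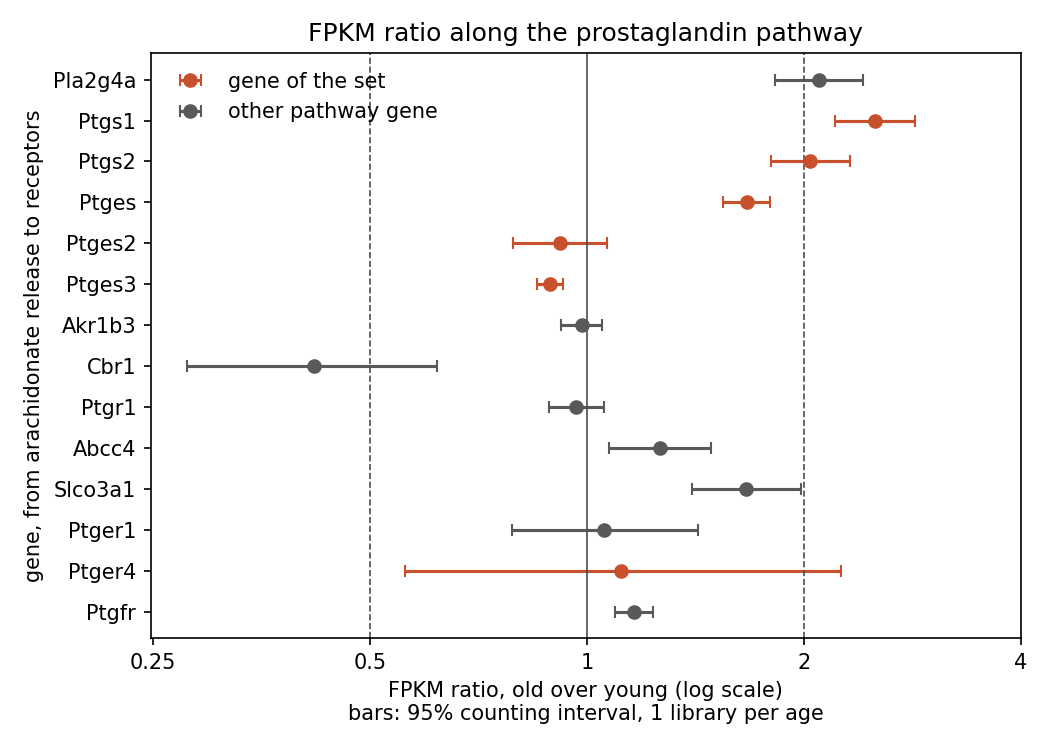
FPKM ratio, old over young, on a log axis for 14 genes ordered from arachidonate release to receptors, with 95% counting intervals from 1 library per age (red, genes of the set; grey, other pathway genes). Pla2g4a, Ptgs1 and Ptgs2 lie near or above 2, Ptges at 1.67, Slco3a1 at 1.66 and Abcc4 at 1.26. Most other later steps lie near 1, and Cbr1 at 0.419.

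Upstream, the cytosolic phospholipase Pla2g4a, which releases arachidonic acid for the cyclooxygenases, was at 10.3 FPKM (young) and 21.6 FPKM (old) (290 and 674 reads). Its ratio was 2.10 [1.82 to 2.41] and its log2 ratio of 0.999 fell just short of 2-fold. In the wider list of arachidonate release, 11 of 22 genes were above the minimum level, none reached 2-fold in either direction and the median log2 ratio was −0.02. Its next largest differences were in the lysosomal phospholipase Pla2g15 (19.5 and 13.3 FPKM), the arachidonate-activating ligase Acsl4 (12.9 and 17.7 FPKM) and Pla2g12a (18.1 and 15.2 FPKM).

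The synthases and reductases of the other prostanoids were mostly close to even. Of 10 such genes, 5 were above the minimum level and none differed 2-fold on the log2(FPKM + 1) scale. All 5 log2 ratios lay below 0, with a median of −0.08. Over all 12561 genes the median was −0.07, with 5078 genes above 0. The carbonyl reductase Cbr1 differed most, at 4.38 FPKM (young) and 1.83 FPKM (old) (84 and 39 reads). Its plain ratio was 0.419 [0.279 to 0.619]. The log2 ratio of −0.92, made smaller in size by the added 1, stayed just under 2-fold. Akr1b3, an aldose reductase that can make prostaglandin F2 alpha, was at 54.7 and 53.8 FPKM. The prostaglandin reductases Zadh2 (11.0 and 9.48 FPKM), Ptgr2 (12.9 and 12.2 FPKM) and Ptgr1 (26.2 and 25.3 FPKM) were also near even. An opposite-strand gene covers 32.0% of the exon bases of Ptgr2, and 17.1% of the words of Akr1b3 are shared with other genes, so both values are uncertain. The prostaglandin D synthases Ptgds and Hpgds had 0 reads in both libraries and the thromboxane synthase Tbxas1 had 4 and 1. Among 3 transport genes, Abcc4, which exports prostaglandins, was at 4.53 and 5.72 FPKM and Slco3a1 at 7.11 and 11.8 FPKM, log2 ratios of 0.28 and 0.66.

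In the neighbouring lipoxygenase pathway, which turns arachidonic acid into leukotrienes, 3 of 15 genes were above the minimum level. Of these 3, 2 were 2-fold higher, against 1.97% of all genes above that level. The 2 higher genes were the glutathione transferase Mgst2 (1.70 and 6.81 FPKM, on 20 and 89 reads) and the lipoxygenase-activating protein gene Alox5ap (0.669 and 2.50 FPKM, on 7 and 29 reads). At a pseudocount of 5 neither stayed 2-fold higher, with log2 ratios of 0.82 for Mgst2 and 0.40 for Alox5ap in place of 1.53 and 1.07. An opposite-strand gene covers 13.3% of the exon bases of Alox5ap. Alox5, the enzyme that Alox5ap serves, had 0 reads in both. The third, the leukotriene A4 hydrolase gene Lta4h, was at 93.8 and 87.9 FPKM.

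Downstream of EP2 and EP4, the Gs and cyclic AMP list had 17 of 22 genes above the minimum level. The median was −0.04, and 1 gene was higher at 2-fold and none lower, against 1.97% and 0.868% of all genes. The higher gene was Pde4b, a phosphodiesterase that breaks down cyclic AMP, at 1.11 FPKM (young) and 4.09 FPKM (old) (36 and 147 reads). Its log2 ratio was 1.27, and 0.57 at a pseudocount of 5. The adenylate cyclase Adcy7 (2.51 and 5.68 FPKM), the arrestin Arrb1 (1.85 and 3.56 FPKM) and Pde4d (3.51 and 5.28 FPKM) followed. Of 17 genes that respond to cyclic AMP, 12 were above that level. Their median was 0.20, with 2 genes beyond 2-fold, both higher, against 1.97% of all genes higher. These 2 were the growth factor Igf1 (55.2 and 123 FPKM) and the cytokine Il6 (1.25 and 3.64 FPKM). At a pseudocount of 5 the log2 ratio of Il6 was 0.47 in place of 1.04, while that of Igf1 stayed beyond 2-fold at 1.09. The immediate-early gene Fos went the other way, at 239 and 159.5 FPKM, and the regulator Rgs2 was at 1.36 and 2.59 FPKM.

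Among 16 genes known to regulate Ptgs2 mRNA, 14 were above the minimum level. Their median was 0.01, with 1 gene higher at 2-fold and none lower, against 1.97% and 0.868% of all genes. The higher gene was Cebpb, a C/EBP transcription factor, at 84.7 FPKM (young) and 177 FPKM (old), a ratio of 2.09 [1.98 to 2.20]. Other genes cover 20.7% of the exon bases of Cebpb. Egr1, a zinc finger transcription factor, was at 112 and 61.9 FPKM, and Zfp36, which destabilises mRNAs with AU-rich elements, at 62.0 and 38.1 FPKM. The interleukin-1 receptor Il1r1 was at 6.09 and 10.1 FPKM, while its ligand Il1b had 1 read in each library and the cytokine Tnf none.

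Markers of other cells that make prostanoids were checked. Of 8 osteoblast genes, 7 were above the minimum level, with Col1a1 at 8568 and 6788 FPKM. Alpl (2.78 and 3.28 FPKM, on 36 and 47 reads) and Ibsp (6.31 and 5.90 FPKM) were among these 7 but at low levels. The late marker Bglap had 3 and 6 reads. Of the 50-base words of Bglap, 55.2% also occur in transcripts of other genes, so reads from it may not have been assigned and its level is uncertain. The largest differences were in Spp1 (224 and 1732 FPKM), Sp7 (55.5 and 28.9 FPKM), Col1a2 (7482 and 5636 FPKM) and Runx2 (92.1 and 72.7 FPKM). A gene of the same strand covers 18.75% of the exon bases of Spp1, so its level is uncertain. Macrophage genes had 3 of 9 above the minimum level and a summed level of 34.5 FPKM (young) and 31.0 FPKM (old). Nearly all of this came from Lyz2 (21.3 and 18.4 FPKM), Cd74 and Cd68. Of the others, Ptprc had 1 and 0 reads, Csf1r 1 and 6, Fcgr1 1 and 1 and Tyrobp 0 and 1, and Adgre1 was at 0 in both. Itgam was also listed at 0, but 80.5% of its words occur in other genes and a gene of the same strand covers 68.7% of its exon bases, so this 0 is uncertain. Mast cell genes gave a single read over 6 genes, in the young library, and 5 endothelial genes summed to 0.357 and 0.323 FPKM. Platelets are rich in Ptgs1. Their 5 markers summed to 9.62 and 12.1 FPKM, with Itga2b at 9.37 and 8.05 FPKM, Ppbp at 0.113 and 3.52 FPKM (2 and 69 reads), Pf4 on 1 and 4 reads, Gp9 on 0 and 1, and Gp1ba at 0 in both. The part of such cells in the Ptgs1 difference was not tested.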

How the data were processed

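The authors deposited FPKM values for 55487 Ensembl gene identifiers, 1 per library. Tools named in the submitters' processing notes are fastp, STAR, HTSeq and edgeR, with mm10 as the build. No source used here states their roles or versions, the annotation release, any filter, or whether strand was used. Symbols, coordinates and transcript lengths were taken from GENCODE M21 for GRCm38 (the same assembly as mm10) and found for 55227 identifiers. Libraries were grouped by their age label.

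To work out reads, each gene's length was set to the mean over its annotated transcripts, rounded, at which 97.6% of values above 0 in either library were whole within 0.01. These reads gave intervals and entered no test. For 0 reads, the value of 3 reads was taken as upper limit. Amplified copies of 1 molecule may be counted more than once, which neither intervals nor limits cover.

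Shared sequence was found by searching 50-base words, taken every 25 bases, in all other transcripts of GENCODE. The genes of the set and all lists were chosen with earlier results of these data known. Named genes are all 9 of the set, up to 4 of each of 13 other lists with the largest differences among genes above the minimum level, neighbouring steps of the pathway, and the 3 genes most like Ptgs1. Alternatives were pseudocounts of 0.1 and 5, filters, rescaling and centring. The calculation was checked on simulated counts with planted differences and counting error alone. That check does not cover spread between animals, amplified copies or shared sequence. Python 3.11.15, pandas 2.3.3, numpy 2.4.6 and scipy 1.17.1 were used.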

Additional observations from a re-analysis of the deposited data

How the results depend on the processing

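The counts over all genes depend on how low values are treated. The 248 higher and 109 lower genes became 408 and 236 when 0.1 was added before the logarithm, 101 and 20 when 5 was added, and 106 and 27 over genes with a mean from 10 FPKM upward. A counting interval wholly beyond 2-fold was found for 182 higher and 39 lower genes. The median over the measured prostaglandin genes, 0.73, was 0.038 with no filter, where the 4 scarce genes enter, and 0.84 over genes from 10 FPKM upward, where Ptges2 leaves. Under the 4 alternatives of pseudocount and scaling, Ptgs1 stayed beyond 2-fold (1.07 to 1.33), Ptgs2 ran from 0.74 to 1.02 and Ptges from 0.68 to 0.79, and the 5 measured genes kept their sign. Of the listed genes higher at 2-fold, Alox5ap, Mgst2, Pde4b, Il6 and Ppbp, all at low levels, were not at a pseudocount of 5 (0.40 to 0.82). The lipoxygenase median of 1.07 became 0.40 there and −0.09 from 10 FPKM upward. The Gs and cyclic AMP median of −0.04 did not keep its sign. It was 0.07 with rescaling, 0.03 with the median of all genes set to 0 and 0.02 with no filter. It stayed below 0 under both pseudocounts and from 10 FPKM upward. The longest transcript as length, used for the share of Ptges and the ratio of Ptgs1 to Ptgs2, was an alternative chosen after seeing the data. No paired analysis was possible because each age has 1 library. Depth limits Ptgis and Ptger4, which had 0 and 4 reads and 17 and 21 reads in the young and the old library.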

Other observations

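A pair of noncoding genes named after Ptgs2 had more reads in the old library. Ptgs2os, transcribed from the opposite strand 68 bases from Ptgs2 and sharing no exon base with it, was at 0.908 FPKM (young) and 1.99 FPKM (old) on 35 and 85 reads, a ratio of 2.19 [1.46 to 3.35]. Ptgs2os2, a long intergenic RNA, had 2 and 33 reads (0.070 and 1.04 FPKM), a ratio of 14.9 [3.81 to 128]. Its mean was below the minimum level. The log2 ratios of Ptgs2os (0.65) and Ptgs2os2 (0.93) were both under 2-fold. Both were picked by symbol after the values of Ptgs2 were known.

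Of the neighbours whose mean reached 1 FPKM within 100 kb of the cyclooxygenase and synthase genes, a window chosen after seeing the data, none differed 2-fold near Ptgs1 (2 genes, log2 ratios −0.28 and 0.14), Ptges (8 genes, −0.22 to 0.26) or Ptges3 (5 genes, −0.34 to 0.01). Near Ptges2, 1 of 7 such genes did. It was Lcn2, an iron-binding acute-phase gene 7644 bases away, at 1.19 and 13.5 FPKM (log2 ratio 2.73), while Ptges2 itself was close to even.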
